A study of Mus musculus with 12 samples.

Results

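The miRNAs described here are the guide strands of the miR-26 and miR-29 families in extracellular vesicles released by cultured bone marrow mesenchymal stem cells of the mouse. They were taken by name, as 5 rows (mmu-miR-26a-5p, mmu-miR-26b-5p, mmu-miR-29a-3p, mmu-miR-29b-3p and mmu-miR-29c-3p) of 1978 annotated mouse miRNA rows in a count table of 3509 rows. Vesicles are membrane particles that cells release with small RNA inside. The cells came from SPF-grade C57BL/6 mice, and all 12 libraries carry the same treatment label, an antigen intervention. The groups, DZ, aFM, NY and PLL, have 3 libraries each, lettered A, B and C. The design text gives exposure to ESPs, HCF or pLL at 2 µg/ml for 48 h, and the series title speaks of hydatid antigen, that of a tapeworm larva. PLL carries the name of pLL, the labels do not say what DZ, aFM and NY stand for, and no group is named as unstimulated. No label says whether libraries A, B and C were separate cultures, so the p-values refer to variation among libraries that may be technical alone.

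A mature miRNA guides the silencing complex to messenger RNAs that pair with its seed, bases 2 to 8, and lowers the protein they give. The miR-29 family is best known for restraining collagens and other matrix genes, and in osteoblasts it rises as the collagen matrix matures. miR-26a has been linked to osteogenic differentiation of mesenchymal cells, where its targets include Smad1 and Gsk3b. The guide strand is the arm of the hairpin that is mostly kept, and the other arm is mostly degraded.

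All 5 members matched RefSeq entries (GRCm38.p6). The mature sequences are shown because paralogs of a family share the seed, set in capitals, and so share most predicted targets, while they differ in a few bases outside it.

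miR-26a-5p: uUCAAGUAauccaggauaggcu
miR-26b-5p: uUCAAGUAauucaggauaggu
miR-29a-3p: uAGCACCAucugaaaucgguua
miR-29b-3p: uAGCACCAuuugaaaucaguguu
miR-29c-3p: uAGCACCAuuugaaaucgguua

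Among RefSeq mature mouse miRNAs, 2 carried the seed of miR-26 and 3 that of miR-29, all of them members. Positions are counted from 1 at the 5′ end, with the first-named miRNA's base first. Over 21 shared positions miR-26a-5p and miR-26b-5p differed by C11U and C21U, and miR-26b-5p was 1 base shorter. miR-29a-3p and miR-29c-3p differed by C10U alone. miR-29b-3p differed from miR-29c-3p by A18G, G21U and U22A and was 1 base longer. A single base thus separates the miR-29a-3p row from the miR-29c-3p row, and how reads with a mismatch were assigned is not given in the sources used here. No other annotated row held the same counts as a member in all libraries.

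The 5 mature forms come from 7 hairpin genes, given here in GRCm38.p6, whereas the submitters' processing notes name mm39. The miR-26 genes lie in the Ctdsp genes, which encode small C-terminal domain phosphatases, on the host's strand. Mir26a-1 (chr9:119031796-119031885) lay in an intron of Ctdspl and Mir26b (chr1:74394310-74394394) in an intron of Ctdsp1. Mir26a-2 (chr10:126995530-126995613), within Ctdsp2, overlapped an exon of at least 1 annotated transcript. Mir29a (chr6:31062660-31062747) and Mir29b-1 (chr6:31063023-31063093) were 275 bases apart on the minus strand, within no other gene of GENCODE M21. Mir29b-2 (chr1:195037040-195037120) and Mir29c (chr1:195037547-195037634) were 426 bases apart on the plus strand, within the noncoding transcript A330023F24Rik and opposite to Cd46. The same miR-29b-3p sequence is made by Mir29b-1 and Mir29b-2, so its count cannot be divided between them.

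The base pairing that ties these seeds to bone matrix can be read in target transcripts, whose levels were not measured in these vesicles. The longest 3′ UTR of each of 20997 protein-coding genes in GENCODE M21 was searched on the transcript strand for the complement of each seed, TGGTGCT for miR-29 and TACTTGA for miR-26. The first was found in 13.1% and the second in 9.68% of genes. Of 10 matrix and regulator genes listed for miR-29, 8 held a match. Genes of 1 chromosome were left out of the target lists of both families, but not of the 20997. The 10 were listed for their link to miR-29, so their share of matches is no test against the 13.1%. Col5a1, a fibrillar collagen, held 4, Eln, the elastin gene, held 3 and Dnmt3a, a DNA methyltransferase, held 5. Col1a1 and Col3a1, major fibrillar collagens of bone and connective tissue, held 1 each. A match is more frequent in a longer 3′ UTR: among genes with a 3′ UTR within 20% of the same length, any match was held by 13.3% for Col1a1, 9.12% for Col3a1, 11.6% for Eln and 22.9% for Col5a1. The same share was 37.8% for the histone deacetylase gene Hdac4, which held 2, and 46.1% for Dnmt3a. Col1a2 and Sparc held none of these letters in this window. For miR-26, Gsk3b, a kinase that restrains Wnt signalling, held 3 matches and Ezh2, a histone methyltransferase, held 1, where 33.6% and 2.89% of genes of like 3′ UTR length held any. Smad1, a BMP signal transducer, held 0. Only the full complement of bases 2 to 8 was searched, without shorter pairings or other transcripts of a gene. The values of 0 thus do not show that Smad1, Col1a2 or Sparc lack any site. The sites below, 27 bases each with the match in capitals, are shown because they are what the shared seeds would pair with. They lie at chr11:94952538-94952544 on the plus strand for Col1a1, chr1:45348982-45348988 on the plus strand for Col3a1 and chr5:134703490-134703496 on the minus strand for Eln. The miR-26 sites lie at chr16:38245270-38245276 on the plus strand for Gsk3b and chr6:47530287-47530293 on the minus strand for Ezh2 (GRCm38). These 5 were taken from 23 matches in the listed genes. An A, opposite base 1 of the miRNA, followed the match in all 5 shown and in 12 of the 23 (10 of 19 for miR-29 and 2 of 4 for miR-26).

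Col1a1, miR-29 site: ggggtgggaaggaatttcTGGTGCTat
Col3a1, miR-29 site: aacttcaaaatgtctcaaTGGTGCTat
Eln, miR-29 site: tccatctccaagggaaatTGGTGCTac
Gsk3b, miR-26 site: aacgctgtgtaacattacTACTTGAat
Ezh2, miR-26 site: tcaaatttgaataaagaaTACTTGAac

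Libraries held 68647 to 214303 counts, of which 17607 to 60436 were annotated miRNAs and the rest predicted loci. Levels are given as CPM (the usual per-library scale for counts, here relative to annotated counts alone) with TMM scaling, a factor per library that evens out most miRNAs. Counts were not divided by length. How evenly the libraries captured different miRNAs was not measured, so ratios between miRNAs are ratios of counts. PLL replicate A stood apart, with 60.7% annotated counts against 29.2% and 41.7% in the other PLL libraries and a TMM factor of 0.73 against 1.13 and 1.10. Its TMM-scaled values are therefore higher than its plain CPM, and results that rest on it are given with and without it. Among markers fixed by cell type, the 8 mesenchymal miRNAs were all detected in every group, summing to 147210 to 251130 CPM. The haematopoietic list summed to 49762 to 143090 CPM, with miR-142a-3p at 0 in DZ and NY, miR-144-5p at 0 in DZ and miR-144-3p at 0 in NY. The endothelial pair summed to 4697 to 5229 CPM in aFM against 370.5 to 2360 CPM elsewhere. The liver miRNA miR-122-5p ran from 1920 to 38726 CPM in DZ and from 13723 to 15949 CPM in aFM. The 7 epithelial markers summed to 299.9 to 2255 CPM in all libraries. The 3 neural ones summed to 2271 to 3283 CPM in DZ, with miR-124-3p at 0 there. Their sum was 33769 to 39716 CPM in aFM, 9868 to 11251 CPM in NY and 89447 to 128450 CPM in PLL. Of the 2 tested, miR-9-5p was called (adjusted p under 0.05) in every pair of groups and in the joint test of all groups. The share of all miRNAs tested that were called there ran from 0.758% in NY against DZ to 18.9% in aFM against DZ, with 3.79% in PLL against DZ. miR-128-3p was called in none of these tests (PLL against DZ, log2 fold change 0.10, adjusted p = 0.784, edgeR's quasi-likelihood test). The part of these marker lists in the values below was not tested.

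miR-26a-5p was abundant in every library, ranking between the 3rd and 10th annotated miRNA by count. It stood at 36733, 43414 and 40497 CPM in DZ replicates A, B and C, at 54668, 50239 and 47676 CPM in aFM, at 41963, 45527 and 44700 CPM in NY and at 100370, 40342 and 49358 CPM in PLL. The aFM libraries were all above those of DZ and NY, PLL replicate A was far above all others, and the other PLL libraries lay within or near the range of the other groups. The mean level was highest in PLL, at 63358 ± 32373 CPM, followed by aFM at 50861 ± 3537, NY at 44063 ± 1865 and DZ at 40215 ± 3350 (SD, n = 3). PLL did not differ from its neighbour aFM beyond the spread. Without replicate A the PLL mean was 44850 CPM. On plain CPM, PLL replicate A held 72192, still the highest of the 12. These are shares of miRNA counts, so a change in vesicle number, in the cells that release them and in RNA per vesicle cannot be told apart.

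miR-26b-5p was far rarer, at ranks between 39 and 79, with 12 to 189 counts per library. It stood at 743, 983 and 1155 CPM in DZ, 1500, 1307 and 1351 CPM in aFM, 1549, 1450 and 845 CPM in NY and 4348, 1684 and 1875 CPM in PLL, for replicates A, B and C. Every PLL library was above every library of the other groups, and every aFM library was above every DZ library. The mean level was highest in PLL, at 2636 ± 1486 CPM, followed by aFM at 1386 ± 101, NY at 1281 ± 381 and DZ at 960 ± 207 (SD, n = 3). In PLL replicates B and C alone the mean was 1779 CPM. The means of aFM, NY and DZ, next to each other in this order, differed from NY by less than the spread within NY.

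miR-29a-3p was the miR-29 guide found in quantity, at ranks between 40 and 58. It stood at 2602, 1619 and 2810 CPM in DZ, 1714, 1382 and 1320 CPM in aFM, 2694, 1955 and 2500 CPM in NY and 3474, 2271 and 1810 CPM in PLL, for replicates A, B and C. The aFM libraries were the lowest group and lay below all NY and PLL libraries, while DZ replicate B fell within their range. The mean level was 2518 ± 859 CPM in PLL, 2383 ± 383 in NY, 2344 ± 636 in DZ and 1472 ± 212 in aFM (SD, n = 3), so DZ, NY and PLL differed by less than their spread. PLL replicates B and C alone averaged 2041 CPM.

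**Figure D1:**
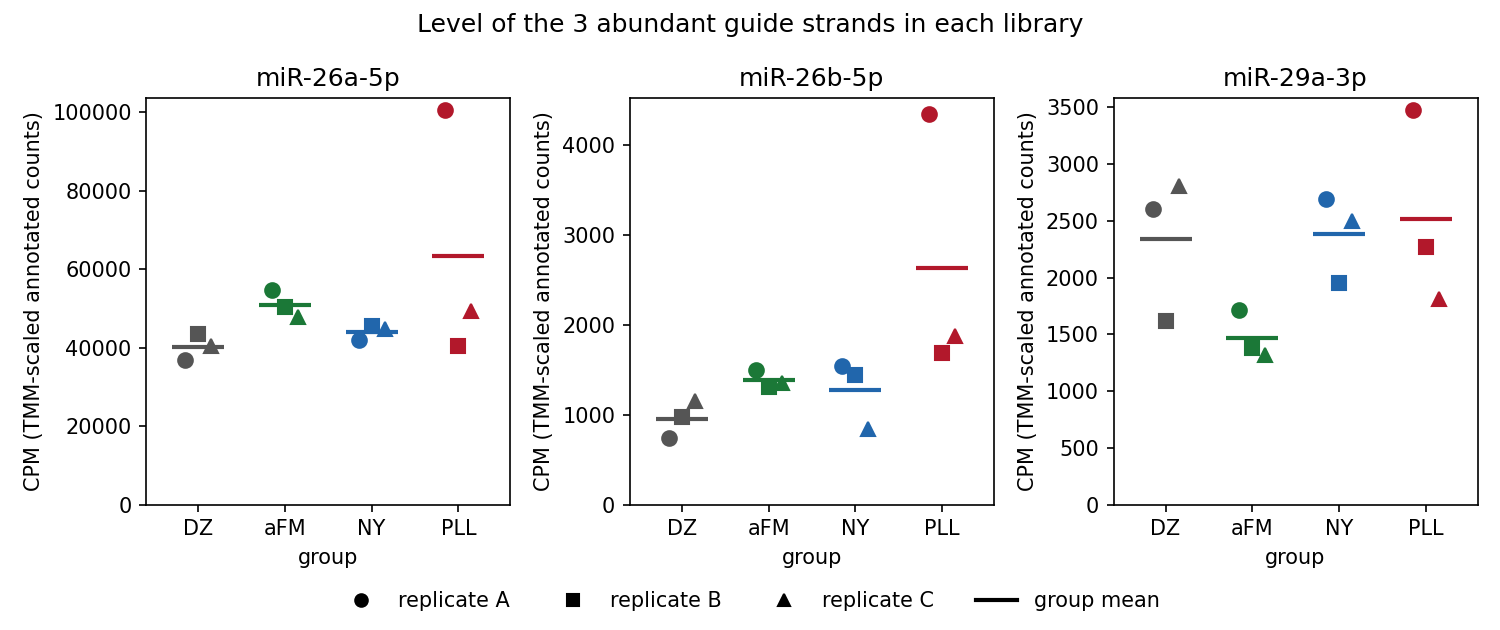
Level of miR-26a-5p, miR-26b-5p and miR-29a-3p in each of the 12 libraries (y axis, TMM-scaled CPM from 0; x axis, group; marker shape, replicate; bar, group mean). PLL replicate A is the highest library in all 3 panels, and the aFM libraries of miR-29a-3p lie between 1320 and 1714 CPM.

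miR-29b-3p and miR-29c-3p were near the limit of detection, and neither passed the low-count filter. miR-29b-3p had 0 counts in all DZ and aFM libraries, 2, 0 and 7 counts in NY and 2, 3 and 2 counts in PLL, each for libraries A, B and C. Its pooled level was 96.3 CPM in NY (95% exact Poisson interval 44.0 to 183) and 56.3 CPM in PLL (22.6 to 116). A count of 0 in the pooled DZ libraries allows up to 49.5 CPM and in the pooled aFM libraries up to 37.9 CPM, taking 3 counts as the limit. By the exact Poisson interval used for NY and PLL, the upper ends are 60.8 CPM in DZ and 46.7 CPM in aFM. Both of these intervals overlap those of NY and PLL. These intervals and limits cover counting error only, and a difference between the groups was not detectable at this depth. In a fit without the filter, over 501 miRNAs, the smallest p among the 6 comparisons for miR-29b-3p was 0.0406 (NY against aFM, adjusted p = 0.433), and its joint test gave adjusted p = 0.376 (edgeR's quasi-likelihood test). miR-29c-3p had 1 count in aFM replicate A and 2 in PLL replicate A and none elsewhere. Over all libraries miR-29a-3p took 97.6% of 794 counts of the 3 miR-29 guides.

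The other arms were all but absent. Of 7 annotated arms of these hairpins, none passed the filter. miR-29b-1-5p had 6 counts, 5 of them in PLL replicate A, miR-26b-3p had 4, all in PLL replicate C, and miR-26a-1-3p and miR-29c-5p had 3 each. miR-26a-2-3p had 2, and miR-29a-5p and miR-29b-2-5p had 0. The guides of the same hairpins had 18054 counts for miR-26a-5p, 603 for miR-26b-5p and 775 for miR-29a-3p. For these 3 guides the other arms held 4 counts or fewer each. The rarer hairpins had too few counts to compare their arms. There were 3 counts of miR-29c-3p against 3 of miR-29c-5p, the latter all in DZ replicate B. miR-29b-3p, which 2 hairpins make, had 16 against 6 of miR-29b-1-5p and 0 of miR-29b-2-5p.

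**Figure D2:**
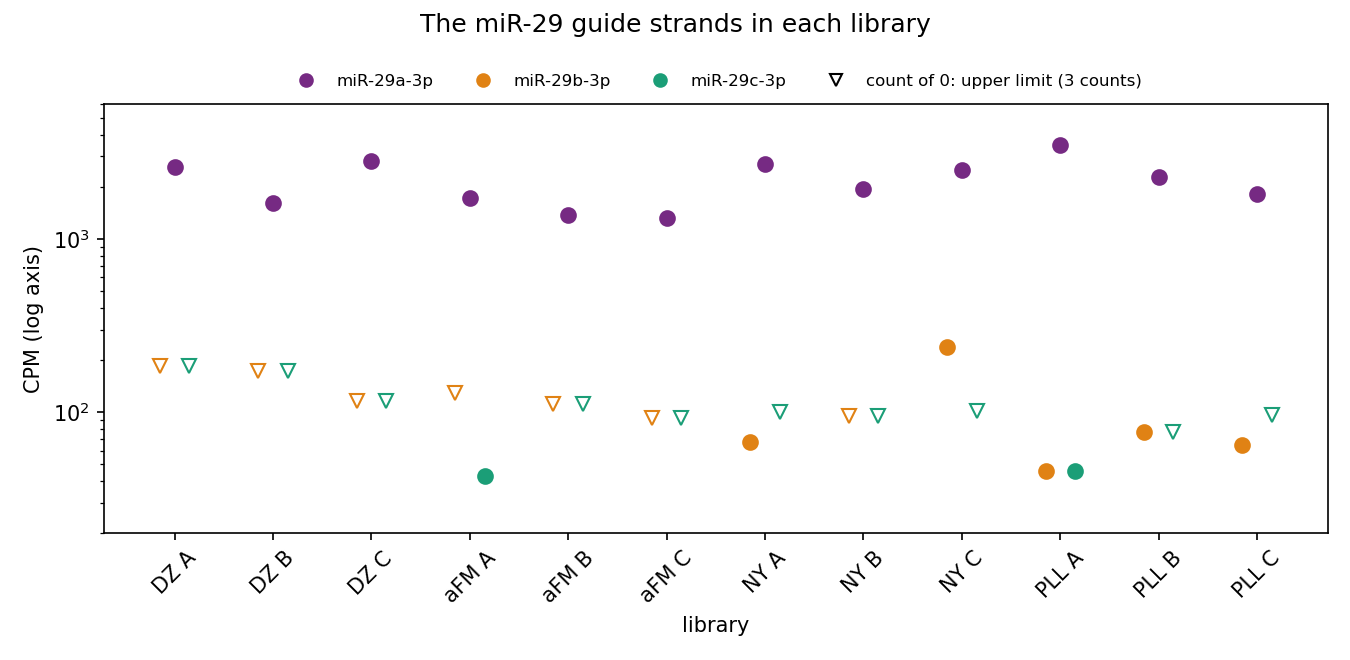
The 3 miR-29 guide strands by library (y axis, TMM-scaled CPM on a log axis; filled circles, libraries with a count; open triangles, the upper limit of 3 counts where the count was 0). miR-29a-3p lies at 1320 to 3474 CPM in every library, and miR-29b-3p and miR-29c-3p lie at 237 CPM or lower or at 0.

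Ratios within a library do not depend on how libraries are scaled, and 2 of them separated 1 group from the rest. How often ratios of other miRNAs do so was not counted, so these separations cannot be called unusual. For single miRNAs, 15.9% to 43.9% of those tested had libraries that did not overlap between a pair of groups. The share of miR-26b-5p among miR-26 guide counts was 4.15%, 4.01% and 3.66% in PLL replicates A, B and C. It was 1.98%, 2.21% and 2.77% in DZ, 2.67%, 2.54% and 2.76% in aFM and 3.56%, 3.09% and 1.85% in NY. All PLL libraries were above all others, and this held for replicates B and C alone, but the exact 95% binomial intervals of PLL replicate C (2.79% to 4.71%) and NY replicate A (2.62% to 4.72%) overlapped widely. Group means were 3.94% ± 0.253 in PLL, 2.32% ± 0.406 in DZ, 2.65% ± 0.110 in aFM and 2.83% ± 0.881 in NY (SD, n = 3). The excess of miR-26a-5p over miR-26b-5p in counts thus ran from 23.1-fold in PLL replicate A to 52.9-fold in NY replicate C.

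The second ratio set miR-26 against miR-29a-3p. There were 32.8, 37.3 and 37.1 miR-26 guide counts for each miR-29a-3p count in aFM replicates A, B and C. The ratio was 14.4, 27.4 and 14.8 in DZ, 16.2, 24.0 and 18.2 in NY and 30.1, 18.5 and 28.3 in PLL. Every aFM library was above every other library, with a mean of 35.7 ± 2.57 against 18.9 ± 7.40 in DZ, 19.5 ± 4.09 in NY and 25.7 ± 6.26 in PLL (SD, n = 3). Both ratios were chosen after the counts were seen and are given as descriptions with no test. With 3 libraries against 3, as in a pair of groups, an exact permutation test cannot give a p below 0.1. That floor does not hold for a group against all the others, and the group was also picked after the counts were seen.

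**Figure D3:**
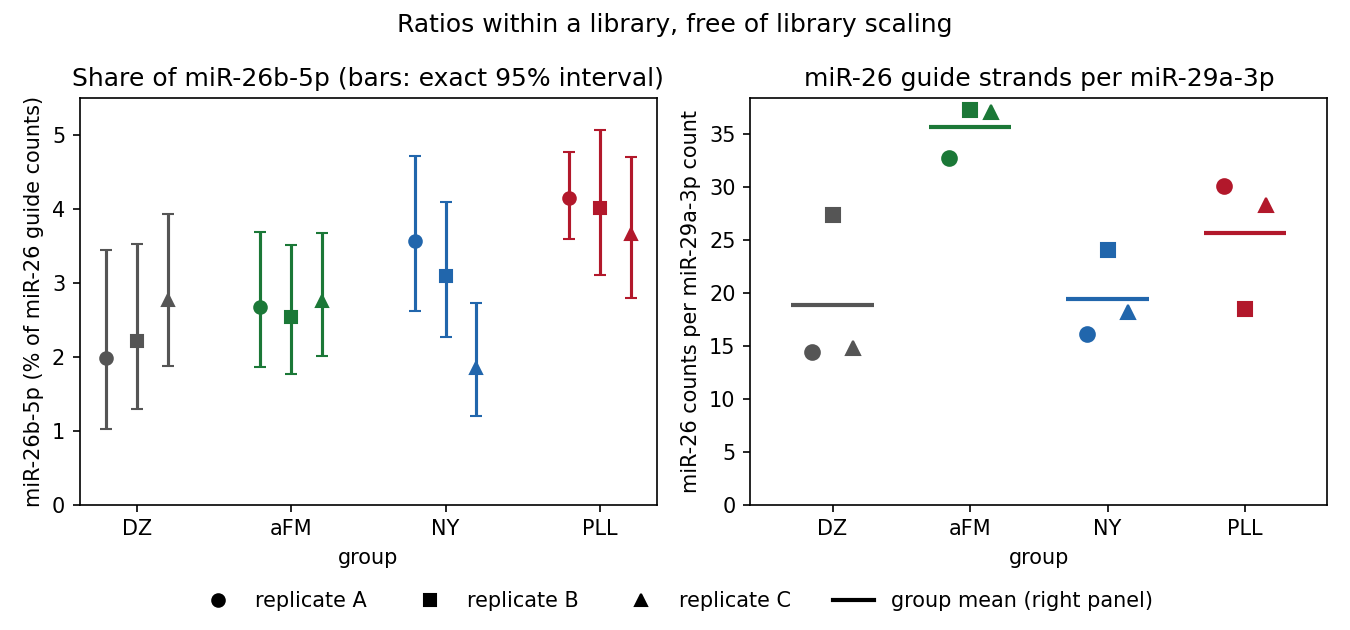
Left, share of miR-26b-5p among miR-26 guide counts in each library with its exact 95% binomial interval. Right, miR-26 guide counts per miR-29a-3p count, with group means; the aFM libraries lie at 32.8 to 37.3, above the other 9, and on the left the PLL libraries lie at 3.66% to 4.15%.

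No member passed the threshold of adjusted p = 0.05 in any comparison (edgeR's quasi-likelihood test, two-sided, Benjamini-Hochberg adjustment over 132 miRNAs). In the joint test for any group difference, 0 of the 3 tested members were called, against 12.1% of all miRNAs tested. miR-26b-5p came nearest (adjusted p = 0.0753, unadjusted p = 0.0169), followed by miR-29a-3p (adjusted p = 0.212) and miR-26a-5p (adjusted p = 0.226). DESeq2's likelihood ratio test called miR-26b-5p (adjusted p = 0.0394) and neither of the others, with 27.5% of all miRNAs called by that test. Over 19 alternatives the adjusted p of miR-26b-5p ran from 0.00626 to 0.264, the highest without PLL replicate A.

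PLL against DZ gave the largest fold change of a member. miR-26b-5p was 2.72-fold of its DZ level (log2 fold change 1.45 ± 0.41 SE, 95% interval 0.55 to 2.34, adjusted p = 0.0647), ranking 8th of 132 by p. DESeq2 called it (adjusted p = 0.0331), as did edgeR without PLL replicate B (adjusted p = 0.0422). Both settings also called more miRNAs in all, 19 and 17 against 5, of which those called higher made up 5.34% and 4.2% of the miRNAs tested. Without PLL replicate A the log2 fold change was 0.83 and the adjusted p 0.211. miR-26a-5p had a log2 fold change of 0.66 (interval 0.052 to 1.26, adjusted p = 0.155), or 0.11 without PLL replicate A. miR-29a-3p was at 0.10 (interval -0.58 to 0.79), or -0.25 without PLL replicate A. The 0 members called by edgeR stand beside 3.79% of all miRNAs tested. An unadjusted p under 0.05 was reached by 2 of the 3 members and by 28% of all miRNAs tested. Only miR-26b-5p had libraries that did not overlap between the groups, as did 21.2% of all miRNAs tested.

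In aFM against DZ, where 18.9% of all miRNAs tested were called, the members called were again 0. An unadjusted p under 0.05 was reached by 0 members and by 30.3% of all miRNAs tested. The miR-26 guides and miR-29a-3p had opposite signs. miR-26a-5p stood at a log2 fold change of 0.34 ± 0.28 (SE; interval -0.26 to 0.94, adjusted p = 0.575) and miR-26b-5p at 0.51 ± 0.41 (interval -0.39 to 1.42, adjusted p = 0.57). Both had libraries that did not overlap, a property shared by 34.1% of all miRNAs tested. miR-29a-3p stood at -0.68 ± 0.32 (interval -1.38 to 0.028, adjusted p = 0.183). The intervals leave room for a miR-29a-3p level in aFM from 0.384-fold to 1.02-fold of that in DZ.

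NY and DZ were the pair with the smallest shares of miRNAs called and of miRNAs without overlap. For miR-26b-5p, however, NY and aFM were closer (log2 fold change -0.11). In NY against DZ the log2 fold changes were 0.13 for miR-26a-5p (interval -0.47 to 0.73), 0.40 for miR-26b-5p (interval -0.50 to 1.30) and 0.019 for miR-29a-3p (interval -0.67 to 0.71). Their adjusted p were 0.984, 0.91 and 0.984. The intervals exclude more than a 1.66-fold higher miR-26a-5p but allow up to a 2.47-fold higher miR-26b-5p in NY. 0 members were called, where 0.758% of all miRNAs tested were, and 0 members had libraries that did not overlap, where 15.9% of all tested did. The sign for miR-29a-3p is not settled, since it turned under RLE factors (-0.040) and in several other alternatives.

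Between NY and aFM, miR-29a-3p was at a log2 fold change of 0.70 ± 0.32 (SE; interval -0.00060 to 1.39, adjusted p = 0.179), with all NY libraries above all aFM libraries. miR-26a-5p was at -0.21 (adjusted p = 0.744), also without overlap, and miR-26b-5p at -0.11 (adjusted p = 0.918). Here 3.79% of all miRNAs tested were called and 43.9% had libraries that did not overlap, against 0 and 2 of the 3 members.

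PLL against aFM gave positive fold changes for all 3. miR-26b-5p was at 0.93 ± 0.39 (SE; adjusted p = 0.138), miR-29a-3p at 0.78 ± 0.32 (adjusted p = 0.134) and miR-26a-5p at 0.32 ± 0.28 (adjusted p = 0.434). Without PLL replicate A these were 0.29, 0.41 and -0.25, so the sign of miR-26a-5p rests on that library. miR-26b-5p and miR-29a-3p had libraries that did not overlap, as did 38.6% of all miRNAs tested, and 0 members were called, where 9.09% of all tested were. An unadjusted p under 0.05 was reached by the same 2 and by 32.6% of all miRNAs tested.

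In PLL against NY, miR-26b-5p was at 1.04 ± 0.39 (SE; interval 0.18 to 1.90, adjusted p = 0.148), 0.48 without PLL replicate A. miR-26a-5p was at 0.52 (adjusted p = 0.302), 0.035 without PLL replicate A, and miR-29a-3p at 0.083 (adjusted p = 0.887), -0.21 without it. 0 members were called, where 6.82% of all miRNAs tested were. miR-26b-5p alone had libraries that did not overlap, against 31.8% of all tested. Comparisons with a common group share its libraries, so the 3 positive values of miR-26b-5p in PLL are not independent.

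**Figure D4:**
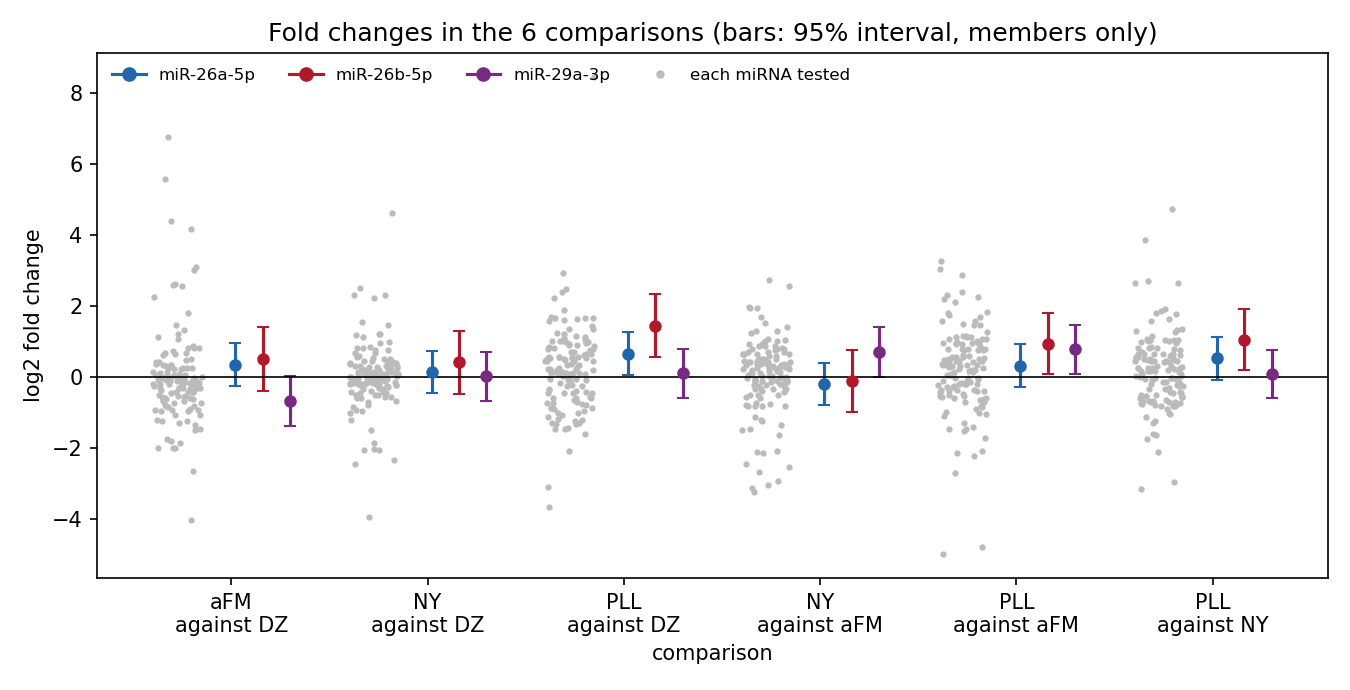
log2 fold changes of miR-26a-5p, miR-26b-5p and miR-29a-3p (coloured circles with 95% intervals) and of each of the 132 miRNAs tested (grey points) in the 6 comparisons. The members lie among the grey points; miR-26b-5p in PLL against DZ, at 1.45, is the farthest from 0.

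All these fold changes are relative to other annotated miRNAs. In a fit over all rows, with the predicted loci in library sizes, filter, dispersions and adjustment, the median of the 130 miRNAs that it shared with the fit on annotated rows moved to a log2 fold change of 1.66 in PLL against DZ, 2.13 in PLL against aFM and 1.48 in PLL against NY, from 0.22, 0.31 and 0.17. In that fit all 3 members were called higher in PLL against DZ (adjusted p = 0.0138 to 0.0443) and against aFM (adjusted p = 0.00444 to 0.016), as were 41.1% and 58.2% of the 141 annotated miRNAs it tested. Against NY, miR-26a-5p and miR-26b-5p were called higher (adjusted p = 0.0452 and 0.0314), as were 24.1% of annotated miRNAs, and miR-29a-3p was not (adjusted p = 0.077). In the joint test of that fit all 3 members were called, as were 56% of annotated miRNAs. Relative to that median, miR-26b-5p stood 1.33 higher in PLL than in DZ, miR-26a-5p 0.56 higher and miR-29a-3p -0.010. In the fit on annotated rows these log2 fold changes were 1.45, 0.66 and 0.10, from which that fit's median of 0.22 was not subtracted. Annotated miRNAs took 43.9% ± 15.9 of all counts in PLL against 17.5% ± 6.23 in DZ (SD, n = 3), and that share moves with these calls; its part in them was not tested.

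Across the 12 libraries the profile of miR-26a-5p was most like that of miR-99a-5p (Pearson r = 0.932, Spearman rho = 0.713 over log2 CPM), let-7g-5p (0.91 and 0.49) and miR-101c (0.894 and 0.531). miR-26b-5p was most like let-7g-5p (0.876 and 0.727) and miR-101c and miR-101a-3p, which held identical counts and are 1 measurement (0.855 and 0.538). miR-29a-3p was most like miR-24-3p (0.754 and 0.706), miR-221-3p (0.739 and 0.622) and miR-125b-5p (0.69 and 0.643). Much of the likeness to the miR-26 guides rests on PLL replicate A. Without it r fell to 0.739, 0.385 and 0.585 for the partners of miR-26a-5p, and let-7g-5p then ranked 31st for that miRNA. For miR-26b-5p the fall was smaller, to 0.626 for let-7g-5p, which then ranked 6th, and to 0.568 for the miR-101 rows. For miR-29a-3p the values without that library were 0.633, 0.632 and 0.538. The paralogs miR-26a-5p and miR-26b-5p had r = 0.845 (rho = 0.469), and 0.483 without PLL replicate A, while miR-26a-5p and miR-29a-3p had r = 0.222 (rho = -0.315), and -0.717 without it. These are descriptions over libraries that share scaling, with no test.

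Other miRNAs linked to bone formation or collagen were counted from lists. Of 7 further miRNAs listed as promoting osteogenesis, 4 were tested. In aFM against DZ, 1 of them was higher and 2 lower, namely miR-3960 (log2 fold change 4.15, adjusted p = 0.0047), miR-210-3p (-2.65, adjusted p = 0.0415) and miR-21a-5p (-0.58, adjusted p = 0.0415), named here after their values were seen. Of all miRNAs tested, 18.9% were called in that comparison. In NY and PLL against DZ 0 were called, where 0.758% and 3.79% of all tested were. The counts were 1 higher and 1 lower both in NY against aFM and in PLL against aFM, and 0 in PLL against NY, where 3.79%, 9.09% and 6.82% of all tested were called. In the joint test 2 of the 4 were called, where 12.1% of all tested were. Of 20 listed as restraining osteogenesis, 9 were tested and 1 was called in aFM against DZ (miR-222-3p, 1.20, adjusted p = 0.0425), 0 in NY against DZ and 1 in PLL against DZ (miR-143-3p, -1.13, adjusted p = 0.00202). In the same list 0 were called in NY against aFM, 1 was higher and 1 lower in PLL against aFM and 2 were lower in PLL against NY, and the joint test called 3 of the 9. The shares of all miRNAs called in these comparisons are those just given. Of 5 others known to target collagen transcripts, 4 were tested and 0 called in any comparison, in the joint test as well. Over the 6 comparisons the median log2 fold change ran from -0.46 to 0.37 for the promoting list, from -0.085 to 0.51 for the restraining list and from -0.67 to -0.066 for the collagen list, beside -0.14 to 0.31 for all miRNAs tested. In PLL against DZ the medians were -0.46, 0.51 and -0.67, beside 0.22. In NY against DZ they were 0.12, 0.29 and -0.28, beside 0.022.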

How the data were processed

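The authors deposited raw counts, as whole numbers whose sums differ between libraries. Per the submitters' processing notes, FastQC, STAR, StringTie, DESeq2 and the build mm39 were used, with no versions or roles; for the miRNA caller, its mismatch rule and the miRBase release the labels state nothing. The extraction protocol in the labels says that the libraries were for messenger RNA, whereas the design text names a small RNA kit. Members and lists were chosen with earlier results of these data known.

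The 1531 predicted loci (39.3% to 89.7% of a library's counts) entered neither library sizes nor tests. Rows were kept by filterByExpr (minimum count 10, minimum total 15), which left 132 miRNAs, and all 12 libraries entered one edgeR 4.0.16 quasi-likelihood fit (R 4.3.3, limma 3.58.1) with TMM factors and a term per group. The SE was the size of the log2 fold change divided by the square root of F, and 95% intervals used the t distribution of the fit. The common biological coefficient of variation was 40.4%. Log2 CPM for likeness had a prior count of 2. Named were all members, their other arms, the 3 most alike tested miRNAs and list counts. The edgeR fit was also run on simulated counts, with changes placed in aFM alone and the same dispersion for every miRNA. Its outcome is not given here, and it does not cover a library that stands apart as PLL replicate A does. Alternatives were DESeq2 1.42.0, other scalings, all rows, no filter, 2 groups only, a replicate block and each library left out.

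Replicate letters are shared by the groups. Same-letter deviations from group means correlated above 0.1 for every letter in NY against DZ alone (0.132 to 0.34); no label states a pairing.

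Sequences came from RefSeq (GRCm38.p6) and GENCODE M21, read with Python 3.11.15.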

Additional observations from a re-analysis of the deposited data

Results flagged for a closer look

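Among the members and other arms outside the tests, 3 values in single libraries were above 3 counts, the limit that a count of 0 allows. Other rows outside the tests were not searched. miR-29b-3p had 7 counts in NY replicate C, where the other NY libraries had 2 and 0. The passenger arm miR-29b-1-5p had 5 counts in PLL replicate A, a library with 2 counts of miR-29b-3p. miR-26b-3p had 4 counts in PLL replicate C and 0 in the other libraries.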

How the results depend on the processing

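The number of members called was 0 in all 7 tests and stayed 0 except in 3 settings. With all rows it was 3 in the joint test, 3 in PLL against DZ, 3 in PLL against aFM and 2 in PLL against NY; DESeq2 gave 1 in the joint test and 1 in PLL against DZ; leaving out single libraries gave 0 to 1 in PLL against DZ, the 1 without PLL replicate B. The cause was not tested. With the replicate block the count was 0 in every test, and the block changed no member's call; its log2 fold change for miR-26b-5p in PLL against DZ was 1.33 (adjusted p = 0.0912). Over all annotated miRNAs the block gave 10 calls in aFM against DZ, 3 in PLL against DZ, 2 in NY against aFM and 1 in NY against DZ.

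Signs turned only for values that did not pass. For miR-29a-3p in NY against DZ the log2 fold change was -0.040 (RLE), -0.22 (upper quartile), -0.049 (no filter), -0.045 (DESeq2), -0.041 (2 groups only) and -0.18 to 0.16 with single libraries left out. In PLL against DZ it was -0.12 (upper quartile), -0.14 (2 groups only) and -0.25 to 0.11, and in PLL against NY -0.0059 (library totals), -0.14 (2 groups only) and -0.21 to 0.14. miR-26a-5p was at -0.097 in NY against DZ (upper quartile), -0.16 in aFM against DZ and 0.40 in NY against aFM (all rows), and -0.25 to 0.34 in PLL against aFM with single libraries left out. miR-26b-5p in NY against aFM was at 0.51 (all rows) and -0.29 to 0.097.

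Of all annotated miRNAs, 25 were called in aFM against DZ (5 to 26 with single libraries left out, 8 to 28 in the other alternatives on annotated rows and 7 with all rows). The same counts were 1 (1 to 2, 1 to 7, and 1) in NY against DZ, 5 (4 to 17, 1 to 19, and 58) in PLL against DZ, 5 (1 to 12, 2 to 29, and 9) in NY against aFM, 12 (4 to 20, 8 to 22, and 84) in PLL against aFM, 9 (5 to 11, 8 to 16, and 34) in PLL against NY and 16 (9 to 23, 13 to 38, and 79) in the joint test. Depth limits miR-29b-3p and miR-29c-3p, which did not enter the tests.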
